A study of Homo sapiens with 54 samples.

Results

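DLX1 to DLX6 form the human DLX family, 6 homeobox genes related to Distal-less of the fly. They were followed here in 27 cultures of human pluripotent stem cells, with and without fibroblast growth factor (FGF). Each member was read from the array probe whose RefSeq accession carries its symbol. This gave 6 probes for the 6 genes, among 42405 probes on the array and 19720 genes named in this way. The family was chosen because DLX5 and DLX6 were among the largest rises when FGF was left out for 4 days. The levels without FGF are therefore given as a description, and no test was made of them.

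The DLX proteins are transcription factors that bind DNA through a homeodomain. Their genes lie as 3 pairs, DLX1 with DLX2 on chromosome 2, DLX3 with DLX4 on chromosome 17, and DLX5 with DLX6 on chromosome 7. DLX1 and DLX2 are known for the development of inhibitory interneurons in the ventral forebrain, DLX3 for placenta, hair, teeth and bone, DLX4 for placenta, and DLX5 and DLX6 for the jaw, the limb, the inner ear and bone. DLX5 is also an early gene of the border of the neural plate and of the ectoderm outside it, and many members respond to bone morphogenetic protein (BMP) signals in embryos.

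RNA was measured on 1-colour Agilent arrays, and the 2 arrays of each culture were averaged and counted as 1 culture. In 3 numbered experiments, H1 embryonic stem cells in E8 Medium (Essential 6 Medium with 2 ng/mL of TGF-beta 1) were sampled before the experiment, as a pre-culture grown in basic FGF (bFGF), and again 4 days after being split among bFGF, the chimeric protein FGFC and no FGF additive. Both factors, and bFGF in the pre-culture, were given at 100 ng/mL. These are 12 cultures of 1 line, so that the results without FGF rest on H1 alone. The study describes the 3 experiments as independent, without saying whether they were separate thaws. The long-term systems are H1 in E8 Medium (30 days, 100 ng/mL), H1 in medium conditioned by mouse embryonic fibroblasts (MEF-conditioned medium; 41 days, 5 ng/mL), KhES-1 embryonic stem cells on feeder cells (30 days, 5 ng/mL), 201B7 induced pluripotent stem cells on feeder cells (50 days, 10 ng/mL) and 253G1 induced pluripotent stem cells in E8 Medium (36 days, 100 ng/mL). Each has 1 culture with bFGF and 1 with FGFC at the stated dose, and the systems other than H1 in E8 Medium have a pre-culture of their own. With the 9 FGF-treated cultures of the 4-day experiments this makes 23 cultures with FGF. The last culture is H1 differentiated in vitro, for which the labels give no FGF, and neither medium nor duration. The study describes it as differentiated through embryoid bodies, and its methods for that assay give a serum-replacement medium in place of E8 Medium.

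A level below is the normalized signal, the log2 of the processed signal minus the 75th percentile of its array, so that 0 is the signal at that percentile. A probe was called well above background by the scanner software's own mark. This held for between 56.2% and 79.2% of the probes of an array, with a median of 67.5%, and 0 probes were saturated. Levels of separate probes cannot be ranked against each other, so each gene is compared only with itself. The arms of experiments 1 and 3 shared a slide within the experiment, whereas the bFGF culture of experiment 2 lay on another slide than its FGFC and no FGF cultures. For experiment 3 the labels give conflicting passage numbers, and in experiment 2 they give passage 49 before and passage 59 after the 4 days. The pluripotent markers POU5F1, SOX2, NANOG, LIN28A, DPPA4, ZFP42 and DNMT3B were well above background on all arrays of all groups.

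The RefSeq promoter table (GRCh38.p14, 250 bases before to 50 after the start of a gene) holds 3 of the 6 members, DLX1, DLX2 and DLX6, and DLX6-AS1, a long noncoding RNA transcribed antisense in the DLX5 and DLX6 locus. The promoters of DLX6 and DLX6-AS1 are shown because both transcripts went from background to well above it without FGF. DLX6 is on the plus strand at chr7:97005303-97005602 and DLX6-AS1 on the minus strand at chr7:97014016-97014315. Capitals mark matches on either strand to TAATTA, a core bound by homeodomains, to GCCNNNGGC, the site of AP-2 factors, or to GGCGCC, a site bound by SMAD proteins of the BMP pathway.
DLX6 promoter: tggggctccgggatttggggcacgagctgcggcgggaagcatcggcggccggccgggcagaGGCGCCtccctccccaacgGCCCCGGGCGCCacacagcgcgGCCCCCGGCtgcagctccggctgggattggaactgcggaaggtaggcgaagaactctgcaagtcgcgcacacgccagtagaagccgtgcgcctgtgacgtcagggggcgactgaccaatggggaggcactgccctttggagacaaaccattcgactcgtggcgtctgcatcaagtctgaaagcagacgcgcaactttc
DLX6-AS1 promoter: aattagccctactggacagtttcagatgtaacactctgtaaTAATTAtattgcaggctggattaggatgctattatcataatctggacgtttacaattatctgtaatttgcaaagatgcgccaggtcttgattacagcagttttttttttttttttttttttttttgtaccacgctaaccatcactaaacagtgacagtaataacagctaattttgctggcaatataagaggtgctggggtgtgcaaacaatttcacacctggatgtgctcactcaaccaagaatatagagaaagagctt
The DLX6 window held 2 matches to GCCNNNGGC and 2 to GGCGCC. They start at bases 81 and 103 and at bases 62 and 87, and the match at base 81 overlaps that at base 87. Of 35116 promoters in the table, 23.2% held GCCNNNGGC and 19.2% held GGCGCC. The DLX6-AS1 window held 1 match to TAATTA, at base 42, which 4.84% of promoters held. The windows of DLX1 and DLX2 held 0 matches to these motifs. The GC content was 67.0% for DLX6 and 36.0% for DLX6-AS1, against a median of 58.7% over all promoters. A match is a run of letters and does not show that a factor binds there.

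Without FGF, DLX5 and DLX6 were the members with the largest differences from bFGF, DLX3 and DLX4 were higher by smaller amounts, DLX2 was higher by an amount that varied among experiments, and DLX1 stayed near background. With bFGF, FGFC or in the pre-cultures, DLX5, DLX6, DLX1 and DLX2 were not well above background on any array of the 4-day experiments. On group means, 5 of 6 members were higher by 2-fold or more without FGF than with bFGF, against 4.66% of all probes, and 0 were lower by as much, against 6.43%, a comparison that the choice of the family already used. In RNA from whole cultures, fewer cells that express a gene and less RNA per cell cannot be told apart.

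**Figure D1:**
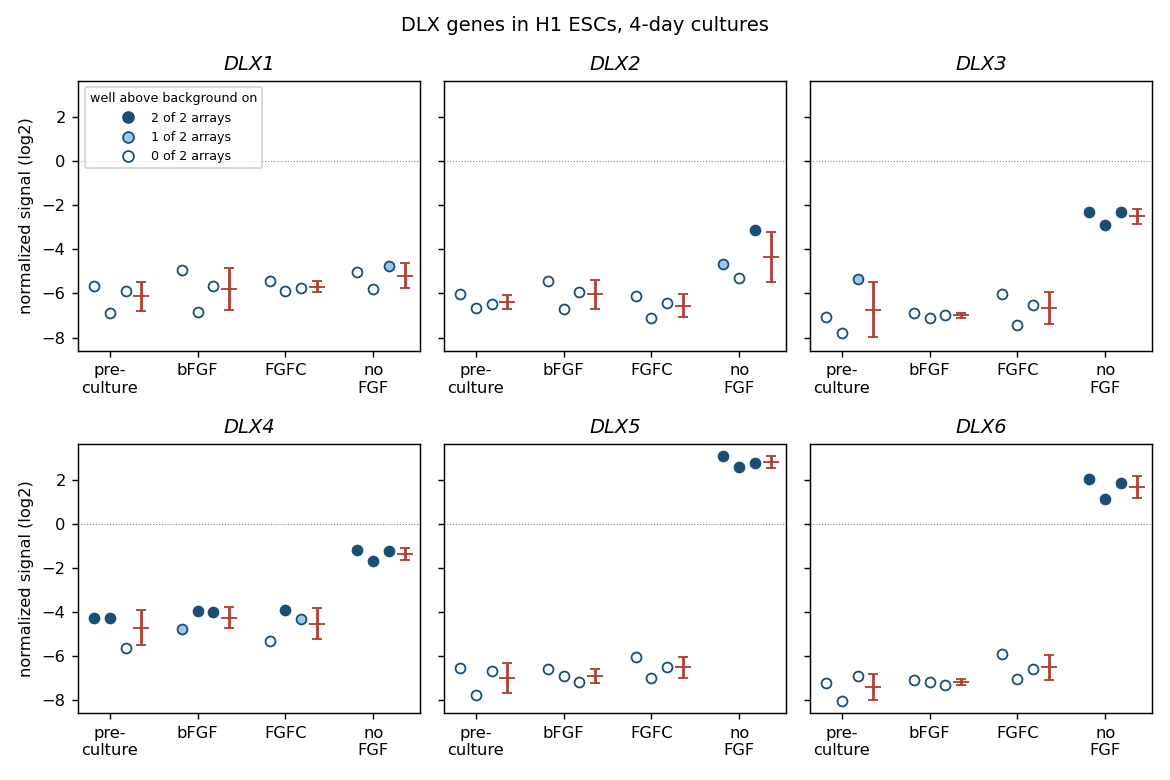
Normalized signal (log2, 0 is the 75th percentile of the array) of the 6 DLX genes in the 12 H1 cultures of the 4-day experiments. Points are cultures of experiments 1, 2 and 3 from left to right, filled by the number of arrays well above background, with mean and SD of 3 cultures in red. The axis is shared for the eye only, since probes cannot be ranked against each other. DLX5 and DLX6 lie above 0 in all 3 cultures without FGF and at or below -5.91 in all others, and the groups of DLX1 overlap.

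DLX5 stood at 3.08, 2.57 and 2.77 without FGF in experiments 1, 2 and 3. With bFGF it stood at -6.57, -6.91 and -7.19. The groups lay far apart, and DLX5 was well above background on 6 of 6 arrays without FGF and on 0 of 6 with bFGF. The level was 2.81 ± 0.26 (SD, n = 3) without FGF and -6.89 ± 0.31 (SD, n = 3) with bFGF. Since the bFGF side is only a bound, DLX5 was at least 387-fold higher without FGF. For that bound, each bFGF array entered with the probe's signal or, where this was lower, with the dimmest signal that still counted as well above background. Within experiments 1, 2 and 3 the log2 difference was 9.65, 9.49 and 9.96. Experiment 2, whose bFGF culture lay on another slide, gave the lowest difference for DLX3, DLX4, DLX5 and DLX6, and the part of the slide in it was not tested. With limma's normexp correction and an offset of 50, which adds to every signal and so shrinks the difference of dim probes, the log2 difference of the means was 6.03 in place of 9.70.

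DLX6, the partner of DLX5 in the pair, stood at 2.04, 1.12 and 1.84 without FGF. With bFGF it stood at -7.06, -7.16 and -7.33. As for DLX5, all 6 arrays without FGF and none with bFGF were well above background. DLX6 was at least 176-fold higher without FGF, and the log2 difference was 9.11, 8.28 and 9.17 in the 3 experiments. Experiment 2 gave the lowest level of both genes, and the SD without FGF was 0.49 for DLX6. With normexp the log2 difference of DLX6 was 5.20 in place of 8.85. DLX6-AS1, which is not a member, stood at -2.76, -2.92 and -2.15 without FGF and between -6.99 and -6.71 with bFGF. It was at least 9.07-fold higher without FGF and well above background on all 6 of those arrays. The pattern of being well above background on all 6 arrays without FGF and on none of 6 with bFGF, shown by DLX3, DLX5 and DLX6, was found for 0.163% of all probes. It too rests on the contrast from which the family was chosen.

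DLX3 stood at -2.29, -2.91 and -2.32 without FGF and at -6.90, -7.10 and -6.98 with bFGF. The 3 cultures without FGF were alike, with an SD of 0.35, and were at least 9.74-fold higher than with bFGF. In the pre-culture of experiment 3 the arrays of DLX3 disagreed, with -6.66 on one and -4.07 on the other, and only the second was well above background. DLX4, the partner of DLX3, was the member with a level of its own in the presence of FGF. It stood at -1.19, -1.71 and -1.21 without FGF and at -4.79, -3.96 and -4.01 with bFGF. With bFGF it was well above background on 5 of 6 arrays, so that the difference of the means, 2.88 on the log2 scale or 7.38-fold, was measured on both sides except for 1 array. Under normexp the log2 differences of DLX3 and DLX4 were 1.65 and 1.67.

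DLX2 stood at -4.65, -5.30 and -3.12 without FGF and at -5.44, -6.72 and -5.95 with bFGF. It was well above background on both arrays of experiment 3, on 1 array of experiment 1 and on neither of experiment 2. The within-experiment log2 differences of DLX2 were 0.79, 1.43 and 2.84, a wider spread than for any other member. The log2 difference of the DLX2 means was 1.68, and 1.11 without experiment 3. It is no bound, since 3 of 6 arrays without FGF were not well above background either. Under normexp it was 0.59 and no longer 2-fold. DLX1, the partner of DLX2, stood at -5.01, -5.82 and -4.74 without FGF and at -4.93, -6.82 and -5.65 with bFGF. These groups overlapped, 1 of 6 arrays without FGF was well above background, and the level was higher in 2 of 3 experiments. A difference of DLX1 was not detectable at the signal of this probe.

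Set against the other arms, the cultures without FGF gave much the same picture. DLX5 was at least 335-fold and DLX6 at least 152-fold higher without FGF than with FGFC. Against the pre-cultures the bounds were 481-fold for DLX5 and 219-fold for DLX6. DLX4 was 8.89-fold higher without FGF than with FGFC and 10.2-fold higher than in the pre-cultures, where it was well above background on 3 of 6 and 4 of 6 arrays, so that part of the low side is background. In both comparisons 5 of 6 members were 2-fold or more higher and 0 lower, beside 3.6% and 5.9% of all probes against FGFC and 6.05% and 5.33% against the pre-cultures. These comparisons share the 3 cultures without FGF, so they are not independent of each other. The 3 cultures without FGF lay above all 9 other cultures of the 4-day experiments for DLX2, DLX3, DLX4, DLX5 and DLX6, a pattern shown by 8.09% of all probes. They lay above all 23 cultures with FGF for the same 5 members, which held for 3.07% of all probes. Both patterns use the cultures without FGF, whose rises chose the family, so they describe the choice and give it no support. For DLX2 the separation lay within background. Its lowest culture without FGF, at -5.30, and its highest with FGF, at -5.44, were well above background on 0 of 2 arrays each.

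With FGFC in place of bFGF, no DLX member passed a test. In limma's test over all probes, with the 12 cultures in the fit, the 4-day FGFC and bFGF cultures differed in 0 of 6 members at an adjusted p of 0.05 and in 0 at an unadjusted p under 0.05. Over all probes these shares were 0% and 2.98%. The differences ran from -0.51 for DLX2 (95% interval -1.64 to 0.62) to 0.67 for DLX6 (95% interval -0.12 to 1.46). DLX6 was higher with FGFC in 3 of 3 experiments, but was well above background on 0 of 6 arrays of either arm. With the experiment number as a block in limma, its unadjusted p was 0.0268 (adjusted p = 0.9998). With slide as a block it was 0.0328 (adjusted p = 0.981, limma). When signals were floored at the dimmest one well above background, DLX3, DLX5 and DLX6 each differed by the same 0.21. That value compares the floors of the arrays, and the part of array background in the DLX6 difference was not tested. For DLX5 the FGFC cultures stood at -6.05, -6.98 and -6.48, and the difference was 0.39, with a 95% interval from -0.37 to 1.14. Each of the 6 intervals reached past a 2-fold change in at least 1 direction, so the tests do not show that the members were alike with FGFC and bFGF. DLX4, which was well above background on part of these arrays, differed by -0.27 (95% interval -1.23 to 0.69). DLX6-AS1 stood at -6.09, -5.55 and -5.56 with FGFC, above all 3 bFGF cultures. Its difference was 1.13 (unadjusted p = 0.000716, adjusted p = 0.775 in limma), it was higher in 3 of 3 experiments, and it was well above background on 0 of 6 arrays of either arm.

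Against the pre-cultures, 0 of 6 members passed with FGFC and 1 had an unadjusted p under 0.05, beside 0% and 5.4% of all probes. This was DLX6, which stood at -5.91, -7.05 and -6.57 with FGFC and at -7.20, -8.04 and -6.92 in the pre-cultures. Its difference was 0.87 (95% interval 0.09 to 1.66, adjusted p = 0.824 in limma). With cultures matched by experiment number, DLX6 was higher with FGFC in 3 of 3 experiments. In experiment 2 that match sets passage 59 with FGFC against a pre-culture of passage 49. All of these DLX6 signals were not well above background, and the groups overlapped. With floored signals DLX5 and DLX6 differed by the same 0.52, a value that compares the floors of the arrays.

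**Figure D2:**
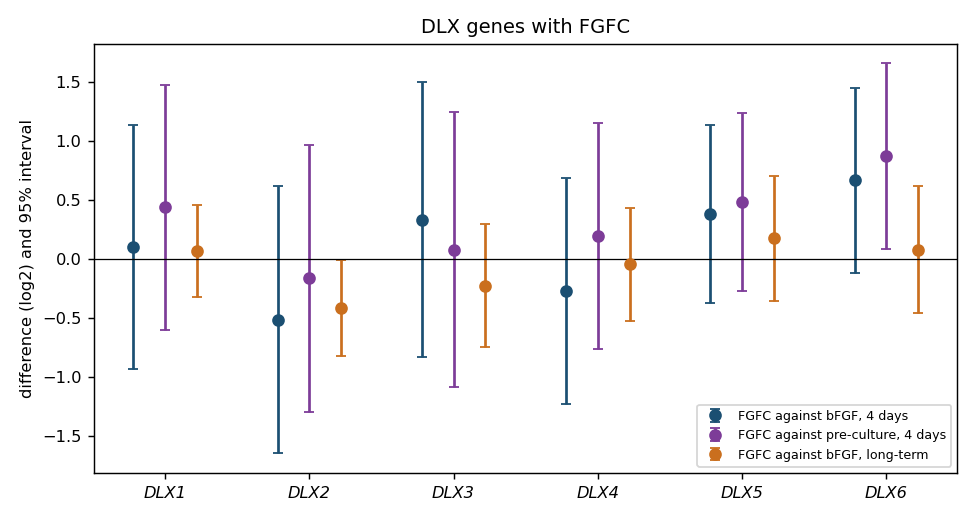
Differences of the 6 DLX genes (log2) with 95% intervals from limma in 3 tests, FGFC against bFGF and against the pre-culture after 4 days (3 cultures per arm), and FGFC against bFGF over the 5 long-term systems. The points lie between -0.51 and 0.87, and all but 2 intervals, DLX6 against the pre-culture and DLX2 in the long-term systems, include 0.

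Over the 5 long-term systems, with the system as a block, the test of FGFC and bFGF called 0 of 6 members, and 1 member fell under an unadjusted p of 0.05, beside 0% and 5.91% of all probes. This was DLX2, with a difference of -0.41 (95% interval -0.82 to -0.0025, adjusted p = 0.704 in limma). It was lower with FGFC in 3 of 5 systems, H1 in E8 Medium, H1 in MEF-conditioned medium and 201B7. The other 5 members differed by -0.22 to 0.18. DLX5 was well above background in only 1 long-term culture on both arrays, H1 after 41 days in MEF-conditioned medium with FGFC. There it stood at -5.50, with -5.75 and -5.24 on the duplicate arrays, against -6.59 in the matching bFGF culture, whose arrays gave -6.24 and -6.95. DLX6 stood at -6.56 in the same FGFC culture and was well above background on 1 of 2 arrays, against -7.21 with bFGF. Each is 1 culture, so this difference has no replicate check. These levels are far below those without FGF. The mark also depended on the array. In the MEF-conditioned FGFC culture the dimmest signal well above background lay at -7.18 and -7.38 on the 2 arrays. In H1 after 30 days in E8 Medium with bFGF it lay at -5.04 and -5.42. A level of -5.50 would have lain below it there.

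**Figure D3:**
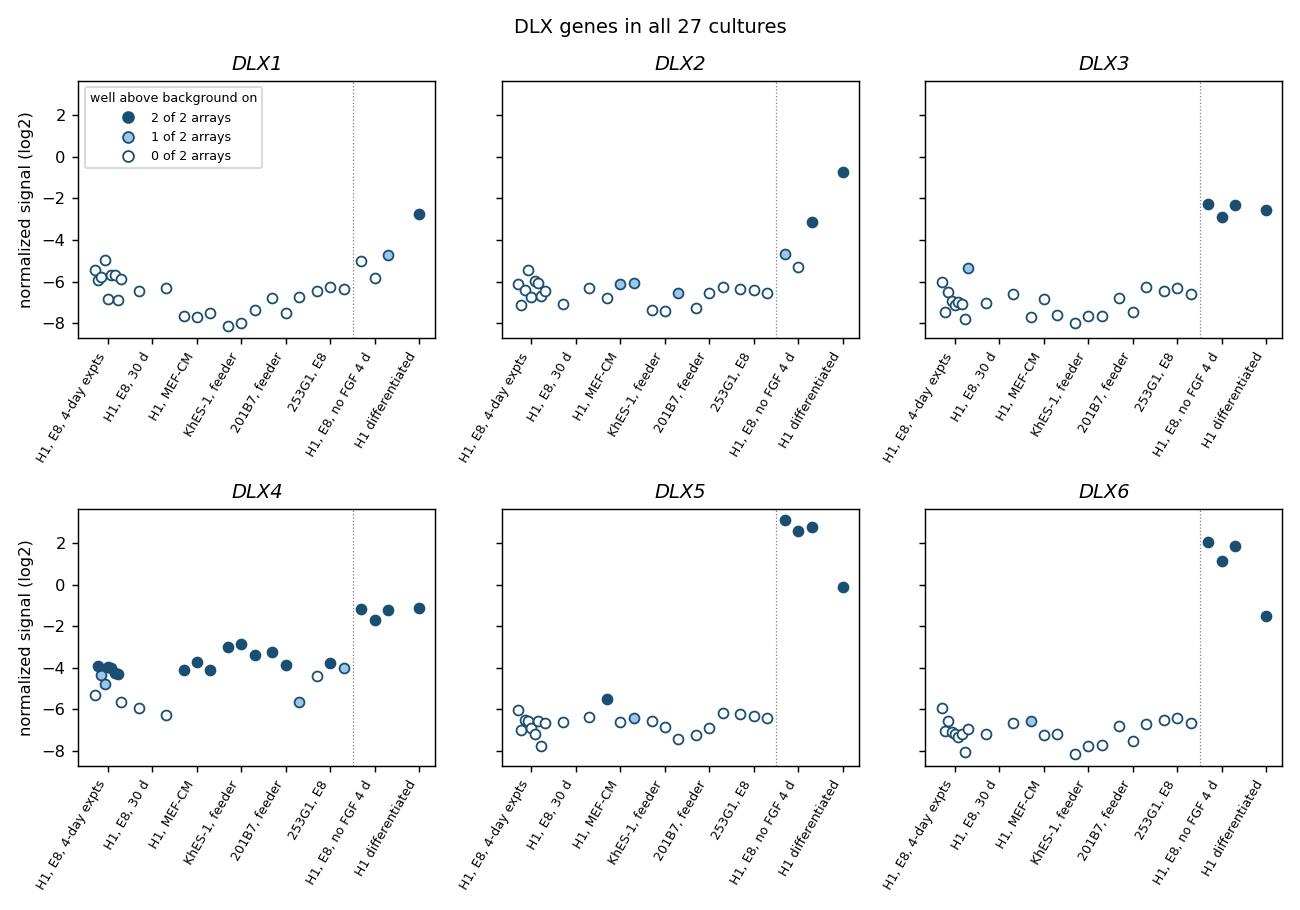
Normalized signal (log2) of the 6 DLX genes in all 27 cultures, 1 point per culture, filled by the number of arrays well above background. Cultures with FGF, from the pre-cultures, bFGF and FGFC arms, stand left of the dotted line and are grouped by line and medium, and cultures without FGF and differentiated H1 stand right of it. Panels share an axis but not a scale of abundance. DLX4 varies among the lines with FGF, from -6.27 to -2.86, while DLX5 there stays at or below -5.50.

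Among the 23 cultures with FGF, DLX4 was the member with the widest range, and it was well above background on 32 of 46 arrays. KhES-1 had the highest DLX4 levels, at -3.37 in the pre-culture, -2.86 with bFGF and -3.02 with FGFC. H1 in MEF-conditioned medium followed at -4.10, -3.73 and -4.11, and 253G1 at -4.01, -3.76 and -4.38 in the same order of arms. The ranges of these 2 systems overlapped each other, and neither overlapped that of KhES-1. In 201B7 DLX4 stood at -5.63 in the pre-culture, with duplicate arrays at -6.49 and -4.78, and at -3.87 and -3.27 with bFGF and FGFC, a range that overlapped all 3. H1 in E8 Medium spanned -5.63 to -3.93 in the 4-day experiments. The lowest DLX4 levels were those of H1 after 30 days in E8 Medium, at -6.27 with bFGF and -5.92 with FGFC, where none of the 4 arrays was well above background. Line and medium differ together between most of these systems and cannot be told apart. Even the highest level with FGF lay below the lowest without FGF, -1.71.

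The other members had no stable level with FGF. DLX1 was well above background on 0 of 46 arrays with FGF, DLX2 on 3, DLX3 on 1, DLX5 on 3 and DLX6 on 1. The median gap between duplicate arrays over the 27 cultures was 0.60 for DLX1, the largest of the family, and 0.21 for DLX4.

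In the differentiated H1 culture all 6 members were well above background on both arrays. DLX1 stood at -2.75 and DLX2 at -0.75, which for each gene was the highest level of the 27 cultures. DLX3 stood at -2.54 and DLX4 at -1.13. DLX5 stood at -0.11 and DLX6 at -1.50, above every culture with FGF and below all 3 cultures without FGF. DLX6-AS1 stood at -4.95 and was well above background on 1 of 2 arrays.

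Against the mean without FGF, the differentiated culture was therefore higher for the chromosome 2 pair, lower for the chromosome 7 pair and close for the chromosome 17 pair. The log2 differences were 2.44 for DLX1 and 3.60 for DLX2, -2.91 for DLX5 and -3.17 for DLX6, and -0.03 for DLX3 and 0.24 for DLX4. In all, 2 of 6 members were 2-fold or more higher and 2 were 2-fold or more lower, beside 12.6% and 14.3% of all probes. Without FGF, DLX1 was well above background on 1 of 6 arrays and DLX2 on 3, so the low side of their differences is poorly measured. With 1 differentiated culture there is no spread and no test. Against the pre-cultures, all 6 members were 2-fold or more higher and 0 lower, beside 14.3% and 15.5% of all probes, with DLX5 at least 63.9-fold, DLX2 at least 39.5-fold and DLX6 at least 24.3-fold higher. In this culture NANOG was at -0.22, against 2.42 ± 0.38 (SD, n = 3) without FGF. The culture lay on a slide of its own and went through embryoid bodies in another medium. Slide, medium and differentiation therefore cannot be told apart.

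**Figure D4:**
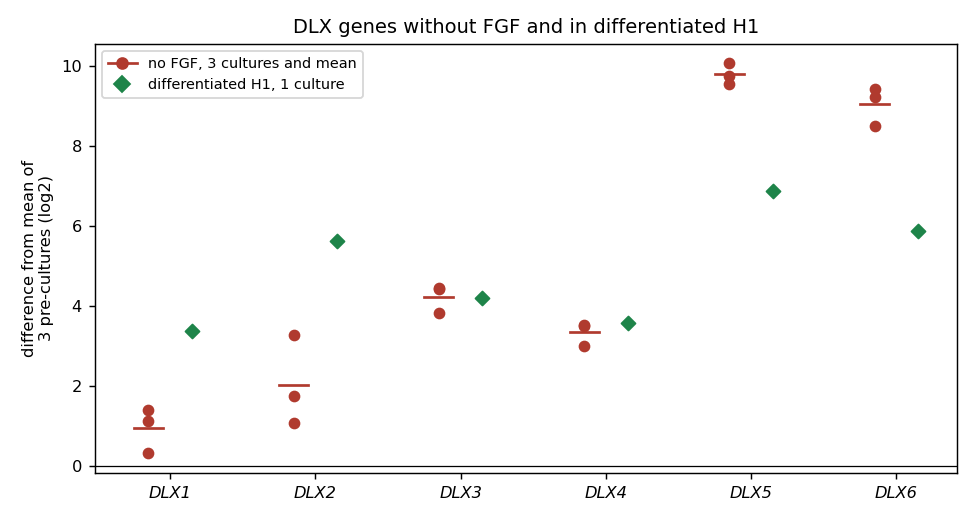
Difference of each DLX gene (log2) from the mean of the 3 H1 pre-cultures in E8 Medium, for the 3 cultures without FGF (red, with their mean) and the 1 differentiated H1 culture (green). Differences from undetected pre-culture signals are not bounds. The differentiated culture lies above the cultures without FGF for DLX1 and DLX2 and below them for DLX5 and DLX6.

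Across the 27 cultures, the DLX5 and DLX6 levels had a Pearson's r of 0.991. Within the 23 cultures with FGF, where both probes are near background, r was 0.671. DLX3 followed both, with r of 0.934 to DLX5 and 0.952 to DLX6, while DLX1 and DLX2 had r of 0.808 to each other and DLX1 had 0.565 to DLX5. DLX4 had r of 0.738 to DLX5 over all cultures and -0.348 within the cultures with FGF. These values describe cultures that fall into separate groups, with 3 cultures without FGF and 1 differentiated culture far from the rest, and cultures of an experiment share their line and medium.

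The genes most like DLX5 over the 27 cultures, of 22548 candidate probes, were GREB1L (r = 0.967), RAX (0.962), DLK1 (0.958), LIX1 (0.956) and HDC (0.956). RAX is a homeobox gene of the eye field, DLK1 a membrane protein related to Notch ligands, and HDC the enzyme that makes histamine. The genes most like DLX6 were GREB1L (0.972), HDC (0.965), RAX (0.955), VAX1, a homeobox gene of the ventral forebrain and eye (0.953), and RSPO3, a secreted enhancer of Wnt signals (0.943). GREB1L stood at 0.64 ± 0.21 (SD, n = 3) without FGF, at -5.67 ± 0.38 (SD, n = 3) with bFGF and at -1.23 in the differentiated culture. DLK1, at 3.39 ± 1.01 (SD, n = 3) without FGF, was at 3.07 in the differentiated culture, where DLX5 was lower. Within the cultures with FGF, r to DLX5 was between -0.187 and 0.634 for the first 5 genes, so the likeness over all cultures rests on the 4 cultures outside them.

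Genes known to act beside the DLX family were counted in the contrast of no FGF against bFGF with limma, on 5 lists with 83 genes in all. Over all named genes, 8.25% were higher and 8.86% lower without FGF, with a median log2 difference of 0.07. Of the 83 genes 27 were higher and 8 lower, and without experiment 3 these counts were 16 and 3. The whole array lost calls too, from 5.54% of its probes called higher and 7.19% called lower to 1.19% and 1.80%. The lists were written with earlier results of these data known and are counted here as a description.

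**Figure D5:**
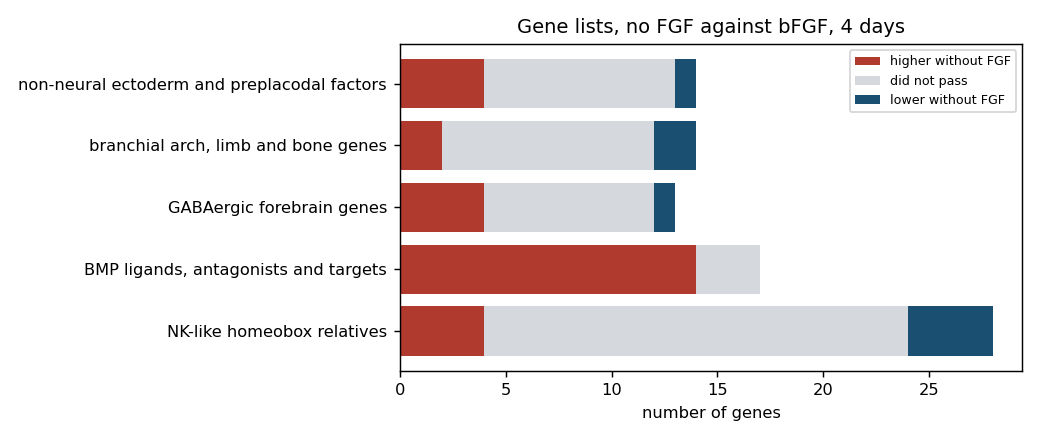
Number of genes on each of 5 lists that were higher (red) or lower (blue) without FGF than with bFGF at an adjusted p of 0.05 in limma, or did not pass (grey), with 3 cultures per arm. Of the BMP list 14 of 17 genes were higher, and on the other lists most genes did not pass.

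BMP genes, whose signals are known to induce DLX genes in embryos, had the largest share of calls, with 14 of 17 higher, 0 lower and a median of 2.64. GREM1, a secreted BMP antagonist, stood at -4.64 ± 0.53 (SD, n = 3) with bFGF and reached 0.50 ± 0.96 (SD, n = 3) in its absence, a rise of 5.14 on the log2 scale (adjusted p = 3.91e-05, limma). ID4, an inhibitor of helix-loop-helix factors and a BMP target, rose by 4.87 (adjusted p = 2.11e-06, limma), and NOG, which encodes the antagonist noggin, by 4.17 (adjusted p = 2.16e-05, limma). With bFGF, GREM1 was well above background on 3 of 6 arrays and NOG on 2 of 6, so their rises start partly from background, and under normexp they were 3.28 and 1.95. The ligands BMP2, BMP4, BMP5 and BMP7 all rose, by 2.64 to 3.37, BMP5 from a signal well above background on 1 of 6 bFGF arrays. CHRD, BAMBI and MSX1 did not pass.

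Of 14 factors of the ectoderm outside the neural plate and of the preplacodal region, 4 were higher and 1 lower, with a median of 0.61. GATA3 was at least 20.1-fold higher (adjusted p = 3.29e-05, limma), GRHL3 rose by 5.02 at its brighter probe (adjusted p = 1.76e-06, limma) and differed by -0.92 at its other probe, and TFAP2C, an AP-2 factor, rose by 2.17 (adjusted p = 0.00193, limma). TFAP2A was the other riser. Under normexp the log2 difference of GATA3 was 2.27. TP63, a keratinocyte factor, did not pass and was well above background on 1 of 6 bFGF arrays and on 0 of 6 without FGF.

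On the list of branchial arch, limb and bone genes, 2 of 14 were higher and 2 lower, with a median of -0.06. FGF8, a signal of the arches, the limb ridge and the anterior neural ridge, rose by 3.81 (adjusted p = 0.00066, limma), a call that was lost without experiment 3, at 3.55. FGF8 was well above background on 1 of 6 bFGF arrays, and under normexp its rise was 1.79. EDN1, the endothelin that acts upstream of DLX5 and DLX6 in the jaw, differed by 1.14 (adjusted p = 0.0709, limma), and its receptor EDNRA by -0.47 (adjusted p = 0.277, limma). At its leading probe EDN1 passed with normexp (0.84), with quantile normalization (1.29) and when only probes well above background were kept. At their other probes EDN1 differed by 0.59 and EDNRA by -0.74. PRRX1 was the other riser, and GSC was among the genes that fell. RUNX2, a bone factor, was not well above background on any array of either arm, and SP7, another, differed by -0.02 at its leading probe, which did not pass, and by 1.47 at its other probe.

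Of 13 genes of GABAergic forebrain cells, 4 were higher and 1 lower, with a median of -0.02. GAD1, the enzyme that makes GABA, was at least 16.1-fold higher (adjusted p = 8.05e-05, limma), and SIX3, an anterior neural homeobox gene, rose by 4.41 (adjusted p = 1.28e-05, limma). GAD2 was also among the risers. LHX6, a marker of interneurons, fell by 1.91. Under normexp the log2 difference of GAD1 was 2.03. GSX2 and NKX2-1 were not well above background on any array of either arm.

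Of 28 homeobox genes related to the DLX family by sequence, 4 were higher and 4 lower, with a median of -0.02. VAX1 rose by 5.88 at its brighter probe and by 2.68 at its other probe (adjusted p = 2.14e-05 at the brighter, limma). Its brighter probe was well above background on 1 of 6 bFGF arrays, and under normexp its rise was 3.41. MSX2, a BMP target, was at least 7.53-fold higher (adjusted p = 7.23e-05, limma), with a log2 difference of 1.12 under normexp. NANOG, the pluripotency factor, fell by 1.71 (adjusted p = 0.000962, limma), a call that was lost without experiment 3, at -1.52. EMX2 and HHEX were the other risers, and EMX1 and HMX2 were also among the genes that fell.

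Marker lists of cell types moved as follows beside the DLX genes, and their part in the DLX levels was not tested. Of 5 neuroectoderm markers, PAX6, ZIC1 and LHX2 were higher without FGF, and SOX1 and NEUROG2 were not well above background on any array without FGF. PAX6 was at least 37.7-fold higher at its leading probe, and its other probes disagreed, with log2 differences of 7.79 and 0.20. The summed level of this list was 1.19 to 5.03 without FGF and -3.41 to -2.89 with bFGF. A summed level adds the linear signals of different probes, so the brightest signal carries most of it and the other markers hardly show. With bFGF the brightest were LHX2 here, KRT7 (amnion and trophoblast), FOXD3 (neural crest), KRT18 (surface ectoderm), AFP (endoderm and liver) and POU5F1 (pluripotent). Of 8 amnion and trophoblast markers 4 were higher, GATA3, TFAP2A, VTCN1 and ISL1, by 5.41, 4.18, 2.75 and 1.36. These 4 were well above background on 0 of 6 bFGF arrays, and ISL1 on 1 of 6 without FGF. GABRP was the 1 lower, at a difference of -3.71, and KRT7, CDX2 and CGA did not pass. CGA was not well above background without FGF. Summed levels were 2.70 to 3.19 without FGF and 2.79 to 3.07 with bFGF, mostly from KRT7, whose means were 2.69 and 2.75. Of 5 neural crest markers 2 were higher and 1 lower (summed levels 0.34 to 0.70, and 1.11 to 1.27 with bFGF). Surface ectoderm gave 0 higher and 1 lower of 5, with KRT5, KRT14 and TP63 not well above background without FGF (5.59 to 5.84, and 6.30 to 6.44 with bFGF). Mesendoderm gave 1 higher of 4, TBXT, which was itself not well above background on any array of either arm (-3.80 to -2.87, and -4.36 to -3.84 with bFGF). Muscle and mesenchyme gave 1 higher and 2 lower of 5 (1.83 to 2.98, and 2.26 to 2.50 with bFGF). Endoderm and liver gave 0 higher and 0 lower of 5, with SOX17, FOXA2 and ALB not well above background without FGF (-0.90 to 0.04, and -0.79 to -0.23 with bFGF). Of 7 pluripotent markers, SOX2 was higher, POU5F1 and NANOG lower (8.07 to 8.54, and 8.56 to 8.87 with bFGF).

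The 3 nearest protein-coding genes on each side of each DLX pair were compared in the same contrast. Of these 18 neighbours 5 were higher and 3 lower without FGF, beside 8.25% and 8.86% of all named genes, with differences from -0.95 to 3.12. Next to DLX5 and DLX6, DYNC1I1, a subunit of cytoplasmic dynein, rose from -4.04 ± 0.37 (SD, n = 3) with bFGF to -0.92 ± 0.38 (SD, n = 3) without FGF (difference 3.12, adjusted p = 0.000961, limma), and SLC25A13 rose by 0.88. SEM1 on the same side, and SDHAF3 and TAC1 on the other, differed by 0.34, -0.32 and -0.00083 and did not pass. ASNS fell by 0.95, close to the threshold (adjusted p = 0.0494, limma). Beside DLX3 and DLX4, SAMD14 rose by 1.93 and PDK2 by 0.56 (adjusted p = 0.0455 for PDK2, limma). Beside DLX1 and DLX2, METAP1D rose by 1.20, and SLC25A12 and PDK1 fell by 0.94 and 0.64 (adjusted p = 0.0411 for PDK1, limma).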

How the data were processed

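RNA of 27 cultures was measured on 54 arrays. The authors deposited scanner files in which each spot has a linear signal intensity, background-subtracted by Feature Extraction 10.7.3.1, its median spot and background intensity, and yes or no marks of quality and detection. Their series table repeats these signals. After the study's methods, signals under 1 were set to 1, and each array's 75th percentile was subtracted on the log2 scale. Outlier and control spots were left out, and log2 values of replicate spots were averaged before that subtraction. Those steps were choices made here. A probe was well above background on an array where at least as many of its spots carried the mark as did not. The methods name no test for the arrays. limma 3.58.1 in R 4.3.3 (lmFit, eBayes, Benjamini-Hochberg over all 42405 probes, threshold 0.05) was fitted to the 12 cultures of the 4-day experiments, and to the long-term bFGF and FGFC cultures with the system as a block. Probes were named by RefSeq accession (25715 of 42405), and where a gene has several probes the brightest on average leads. The members and lists were chosen with earlier results of these data known. Named genes are all members, the 3 largest differences on each list among genes detected on all arrays of the higher arm, the 5 most correlated genes, and genome neighbours; other genes are named as members of a count and were chosen after their values were seen. A few genes counted on the lists are not reported here by name. Promoters came from RefSeq (GRCh38.p14). The fit was tested on simulated data. The study calls the 3 numbered 4-day experiments independent, and each long-term system is 1 culture per arm. After removal of arm means, cultures with the same experiment number correlated at 0.189 to 0.317 between bFGF and no FGF. Between FGFC and bFGF the values were 0.077 to 0.177, and between FGFC and the pre-culture -0.16 to 0.51, so not every pair passed 0.1. Differently numbered cultures of all arms reached 0.51, and arms of experiments 1 and 3 shared a slide. Whether the number pairs the cultures is therefore not settled, and the main fit of the 4-day cultures left it out. The number of arrays limits the precision. Python 3.11.15, numpy 2.4.6, pandas 2.3.3 and matplotlib 3.10.9 were used.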

Additional observations from a re-analysis of the deposited data

How the results depend on the processing

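No member passed in any of the 3 FGFC tests under any of the 13 alternatives run for each, with 0 or 1 at an unadjusted p under 0.05. The count of members 2-fold higher without FGF was 4 to 6, 4 with normexp and 6 on the second arrays, and 4 of the 4 members kept when only probes well above background were used. That filter asked for all arrays of at least 1 group. DLX3, DLX4, DLX5 and DLX6 met it only through the cultures without FGF, so this last count gives no support. The deposited series table repeats the scanner signals, so it gave the same levels and is no separate check. The differentiated culture had 1 member 2-fold higher than without FGF under normexp, DLX2, in place of 2, an alternative chosen after seeing the data like all those for this culture. Without experiment 3 the list counts were 16 higher and 3 lower, and leaving out any 1 experiment gave 16 to 24 higher and 3 to 9 lower. The experiment number as a replicate block gave 27 and 8, as without it, and 0 members in both 4-day tests. It changed no call of a member. Over all arms, same-numbered cultures had a median correlation of 0.18 and differently numbered ones of -0.11. Removal of the arm means ties these values together, so their opposite signs are partly arithmetic. In the long-term fit without the replicate block 0 members passed.

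Differences of FGFC that turned sign were all of members that did not pass, and the cause was not tested. Against bFGF after 4 days these were DLX4 at 0.030 with normexp, DLX1 at -0.15 with quantile normalization, DLX2 at 0.054 with floored signals, and on the second arrays DLX1 at -0.072 and DLX3 at -0.015. Leaving out 1 experiment gave -0.30 to 0.41 for DLX1. Against the pre-culture, normexp gave DLX3 at -0.23 and DLX5 at -0.00081, quantile normalization DLX1 at -0.19, DLX3 at -0.42 and DLX5 at -0.084, floored signals DLX2 at 0.47, the second arrays DLX3 at -0.55, and slide as a block DLX3 at -0.087. Leaving out 1 experiment gave -0.40 to 0.70 for DLX3 and -0.36 to 0.83 for DLX4. In the long-term systems, normexp gave DLX1 at -0.073, DLX5 at -0.0017 and DLX6 at -0.086, quantile normalization DLX3 at 0.038 and DLX4 at 0.12, floored signals DLX1 at -0.056, the first arrays DLX1 at -0.61, DLX5 at -0.021 and DLX6 at -0.013, and the second arrays DLX4 at 0.18. Leaving out 1 system gave -0.11 to 0.13 for DLX1, -0.20 to 0.10 for DLX4, -0.052 to 0.30 for DLX5 and -0.085 to 0.23 for DLX6.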
